A study of Mus musculus with 12 samples.

Results

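The 10 imprinted genes H19, Meg3, Rian, Mirg, Peg3, Dlk1, Plagl1, Ndn, Mest and Grb10 were followed through mouse satellite cells, the muscle stem cells that lie along the fibre. They were taken by gene name from the 55401 genes of the count table, where each had 1 row. All 10 passed the filter on low counts, as did 25771 genes in all. The cells were sorted as ZsGreen+ cells from the hind limb muscle of adult mice of 3 to 4 months, in which a Pax7-ZsGreen reporter marks satellite cells. Every mouse carried floxed Cxcr4 alleles (CXCR4 FL/FL), the receptor for the chemokine SDF1, and every mouse received tamoxifen by 5 daily intraperitoneal injections of 80 mg/kg, followed by tamoxifen in the diet according to the methods. KO mice carried Pax7-creERT2 in addition and WT mice did not, so that deletion in KO depended on a cre driven by Pax7 and was limited to cells that expressed it. RNA was taken from freshly sorted cells, called quiescent (4 WT and 4 KO libraries), and from sorted cells cultured overnight, called activated (2 WT and 2 KO libraries). Neither the labels nor the methods tie each library to 1 animal, so the p-values measure the spread between these libraries.

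An imprinted gene is transcribed mainly from the copy inherited from 1 parent, because a control region was marked by DNA methylation in the germ line of 1 parent. Such genes lie in clusters, each under a control region that sets which copy is read, and many of them act on growth: several of the paternally expressed genes favour it and several of the maternally expressed genes restrain it. In muscle, the H19 and Igf2 pair and the Dlk1 to Dio3 cluster are known from development and from stem cell quiescence. Counts of reads per gene do not tell the parental copies apart, so imprinting itself was not measured here.

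Quiescent libraries held 12775593 to 23717013 counts and activated libraries held 3172164 to 5427280, so a low level was less precise in the activated cells. A single ribosomal RNA gene took 0.295% to 0.807% of the counts in quiescent libraries and 11.5% to 40.3% in activated ones. Cxcr4 itself, the targeted gene, stood at 80.4 ± 25.2 CPM (counts scaled to a library of 1000000; SD, n = 4) in WT and 17.1 ± 3.54 (SD, n = 4) in KO quiescent cells. In activated cells it stood at 33.3 and 14.4 CPM in WT and at 5.38 and 13.7 CPM in KO, so that KO replicate 2 lay close to WT replicate 2. The activated log2 fold change of -1.35 (SE 0.46, adjusted p = 0.381 by edgeR) was not called, and each comparison of KO with WT in activated cells rests on these libraries. Pax7, the defining satellite cell gene, was present in every library, at 180 to 481 CPM in quiescent and 71.0 to 129 CPM in activated cells. Every KO quiescent library, at 180 to 289 CPM, lay below every WT quiescent one, at 303 to 481 CPM. The log2 fold change of Pax7, KO over WT, was -0.67 there (SE 0.23, unadjusted p = 0.00987 by edgeR) and was not called. Myod1, the myogenic regulator, was present at 811 to 3090 CPM in quiescent and 1257 to 1883 CPM in activated libraries. Quiescent libraries had 7518 to 15463 counts on Y-linked genes and activated libraries had 1 to 37, against 25 to 101 and 1030 to 4899 counts for Xist, so sex and state cannot be told apart. Genes of the mature fibre moved with state too: the summed level of 12 fibre markers was 353 to 1164 CPM in quiescent libraries and 9017 to 20367 CPM in activated ones. Of these 12, 11 were called higher in WT and 12 in KO, and none was at 0 in a group. Genes of the other marker lists were called lower with activation in WT and KO, respectively: 9 and 10 of 12 satellite cell genes, 6 and 7 of 10 hematopoietic, 6 and 5 of 7 Schwann and neural, 4 and 6 of 8 smooth muscle and pericyte, 4 and 3 of 10 endothelial, and 3 and 3 of 10 fibroadipogenic progenitor genes, a list of which 2 genes were called higher in KO. Of 10 genes of early differentiation, 2 in WT and 1 in KO were called lower with activation, and 1 and 2 were called higher. Tyrobp, a hematopoietic gene, was the 1 marker at 0 in a group, WT activated. In bulk RNA, fewer cells of a type and less RNA per cell cannot be told apart.

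The members differed widely in level, which is compared here as CPM divided by the kilobases of annotated exon. In WT quiescent cells Peg3 stood first at 155 ± 39.4 CPM per kb (SD, n = 4) and its libraries lay above those of every other member. H19 followed at 49.3 ± 34.7, Grb10 at 30.1 ± 2.42, Plagl1 at 23.2 ± 6.80, Mirg at 17.7 ± 6.48 and Meg3 at 17.0 ± 2.35 CPM per kb. The libraries of neighbours in this order overlapped, while those of Grb10 lay wholly above those of Mirg and Meg3, and those of H19 wholly above those of Meg3. Mest followed at 9.23 ± 3.00 CPM per kb, below Meg3 in all libraries but overlapping Mirg, and Ndn at 3.73 ± 1.00 lay below Mest. Dlk1 at 0.0723 ± 0.0324 and Rian at 0.0396 ± 0.0221 CPM per kb were last and overlapped. KO quiescent cells gave nearly that order, with Peg3 first at 167 ± 72.8 CPM per kb and Rian last. In activated cells H19 stood first, at 278 ± 126 CPM per kb in WT and 1060 ± 288 in KO (SD, n = 2 each), and Grb10 second, at 15.5 ± 1.03 and 15.6 ± 2.15 CPM per kb.

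**Figure D1:**
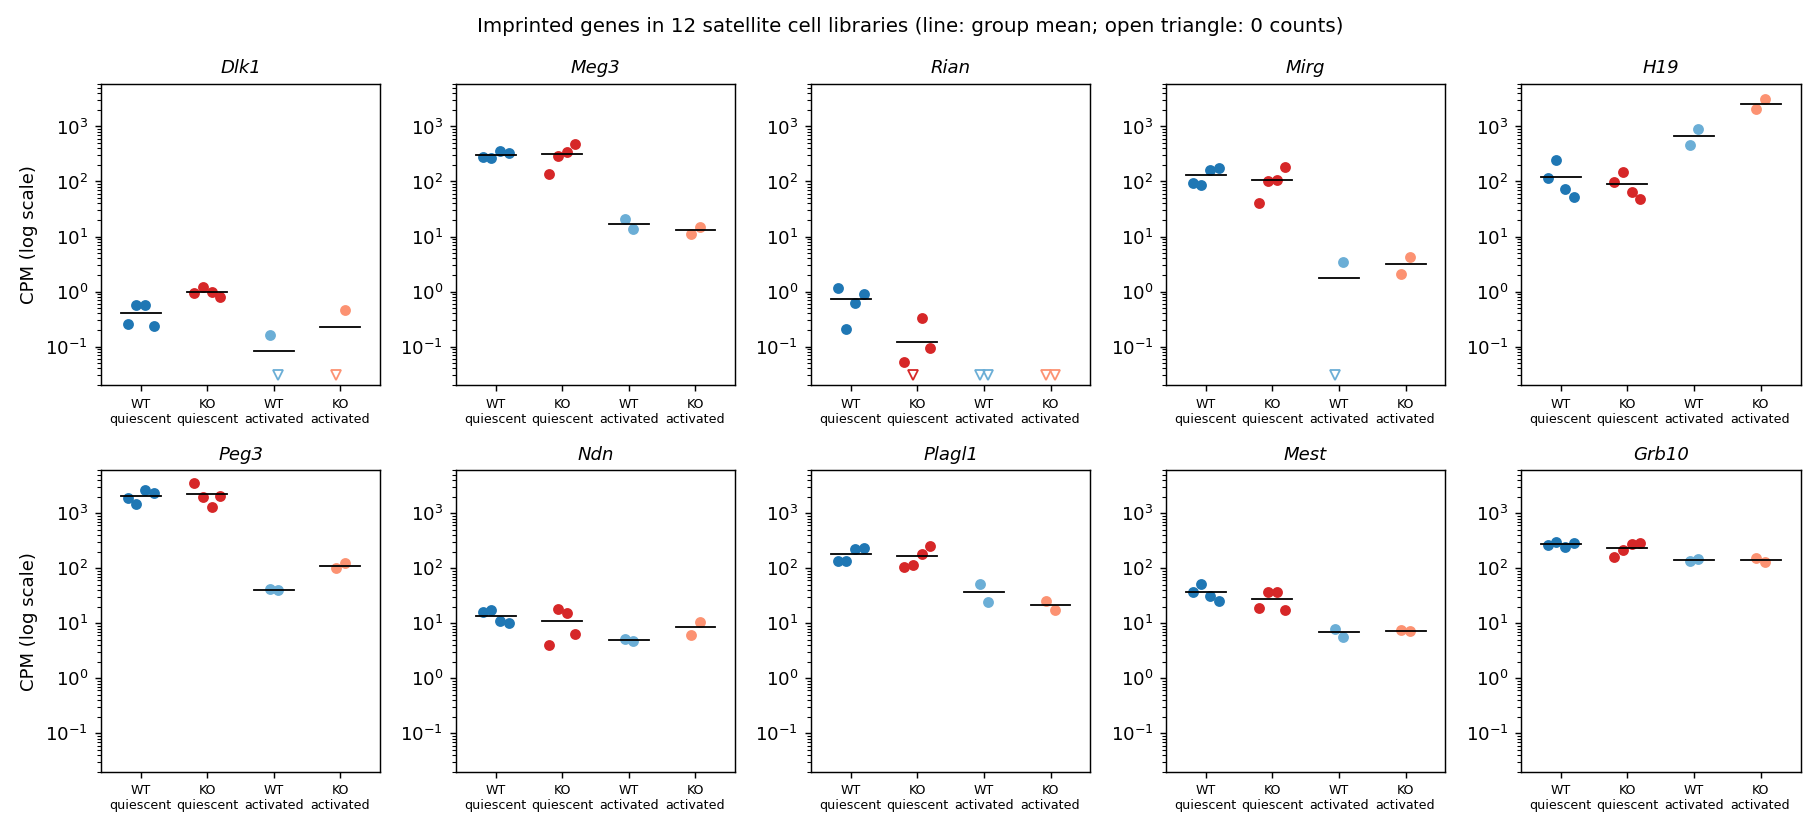
Level of each of the 10 imprinted genes (CPM, log axis) in the 4 WT and 4 KO quiescent and the 2 WT and 2 KO activated libraries, with 1 point per library, a line at the group mean and an open triangle for a library with 0 counts. H19 lies higher in the activated libraries, up to 3109 CPM, whereas Peg3 falls from between 1289 and 3583 CPM to between 40.2 and 122 CPM.

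Overnight culture was the comparison in which the members moved. In WT cells 6 of the 10 were called, of which H19 rose and Meg3, Mirg, Peg3, Plagl1 and Mest fell. Called means an adjusted p below 0.05, an absolute log2 fold change above 1 and a mean normalized count above 10 (edgeR quasi-likelihood test, Benjamini-Hochberg over all genes). Of all genes tested in WT, 15.7% were called lower and 9.59% higher, against 5 and 1 of the 10 members. KO cells gave the same 6 members in the same directions, where 17.4% of all genes were called lower and 11% higher. The median log2 fold change of the 10 members was -2.32 in WT and -2.48 in KO, beside medians of -0.92 and -0.96 over all genes tested. All 9 members other than H19 lay lower in both activated WT libraries than in all 4 quiescent ones, a pattern that 38.4% of all genes tested showed. Among the 9, Rian had 0 counts in both activated WT libraries and Dlk1 had 1 and 0. Both genes also enter the medians above. In KO cells 7 of 10 members lay lower without overlap, against 36.1% of all genes tested. Beside the members that fell, the summed level of the hematopoietic markers was 117 to 645 CPM in quiescent and 45.2 to 99.0 CPM in activated libraries, that of the Schwann and neural markers 268 to 636 and 62.1 to 211 CPM, that of the smooth muscle and pericyte markers 494 to 1859 and 211 to 401 CPM, and that of the satellite cell markers 6254 to 10520 and 3091 to 4349 CPM. The summed fibroadipogenic progenitor markers, at 324 to 3811 CPM in quiescent and 317 to 916 CPM in activated libraries, overlapped between the states. So did the summed endothelial markers, at 338 to 1583 and 147 to 843 CPM. The part of these markers in the falls of the members was not tested.

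Meg3 is a maternally expressed long noncoding RNA (lincRNA) of the Dlk1 to Dio3 cluster (ENSMUSG00000021268, GRCm38 chr12:109541001-109571726, plus strand, 18089 bases of exon). The 250 bases before its first start site in the RefSeq table are shown because Meg3 and Mirg fell together, with the TATA box letters TATAAA on either strand in capitals (GRCm38.p6 chr12:109540746-109540995, plus strand).
Meg3: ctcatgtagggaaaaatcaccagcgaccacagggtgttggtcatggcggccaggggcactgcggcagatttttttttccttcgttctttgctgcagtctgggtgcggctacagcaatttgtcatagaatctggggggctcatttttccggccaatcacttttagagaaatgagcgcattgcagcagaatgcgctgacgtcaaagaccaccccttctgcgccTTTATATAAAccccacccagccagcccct
The overlapping matches lie close to the end of this stretch, and TATAAA on either strand was present in 13.6% of all 32851 promoter windows of the table.

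Meg3 stood at 277, 268, 357 and 331 CPM in the WT quiescent libraries and at 135, 290, 342 and 476 CPM in KO. In activated cells it stood at 20.5 and 13.5 CPM in WT and at 11.3 and 15.0 CPM in KO. Every activated library lay below every quiescent one, with no overlap. Its log2 fold change with activation was -4.15 (SE 0.44, adjusted p = 9.87e-07 by edgeR) in WT and -4.56 (SE 0.45, adjusted p = 3.9e-07 by edgeR) in KO. The lowest quiescent value came from KO replicate 1, which also had the lowest Mirg, Ndn, Plagl1 and Grb10 among the quiescent libraries.

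Mirg is a lincRNA that hosts microRNA hairpins further along the cluster, 68.0 kb beyond Rian (ENSMUSG00000097391, chr12:109729764-109749460, plus strand). It stood at 92.0, 84.8, 164 and 175 CPM in WT quiescent and at 40.4, 103, 107 and 181 CPM in KO quiescent libraries. Of the activated libraries, WT replicate 1 held 0 counts and replicate 2 held 8 counts (3.50 CPM). KO held 8 and 19 counts, or 2.05 and 4.33 CPM. Mirg thus lay at 4.33 CPM or less in the activated libraries and at 40.4 CPM or more in the quiescent ones. Mirg had a log2 fold change of -6.85 (SE 0.88, adjusted p = 7.72e-06 by edgeR) in WT and -5.06 (SE 0.74, adjusted p = 2.81e-05) in KO. The WT value depended on 8 counts: it was -5.13 without WT activated replicate 1, and without replicate 2 the remaining library held no count, which gives a level at least 275-fold lower against a floor of 3 counts. Over each library left out in turn the KO value ranged from -5.70, without KO activated replicate 2, to -4.64.

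Meg3 and Mirg kept a similar ratio in quiescent cells. Per kilobase, Mirg was 0.740 to 1.31 times as abundant as Meg3 in the 8 quiescent libraries, from KO replicate 1 to WT replicate 4. In the activated libraries this ratio was 0 and 0.640 in WT and 0.451 and 0.714 in KO, which lay below all quiescent values and rested on 0 to 19 counts of Mirg. The ratio was not tested.

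**Figure D2:**
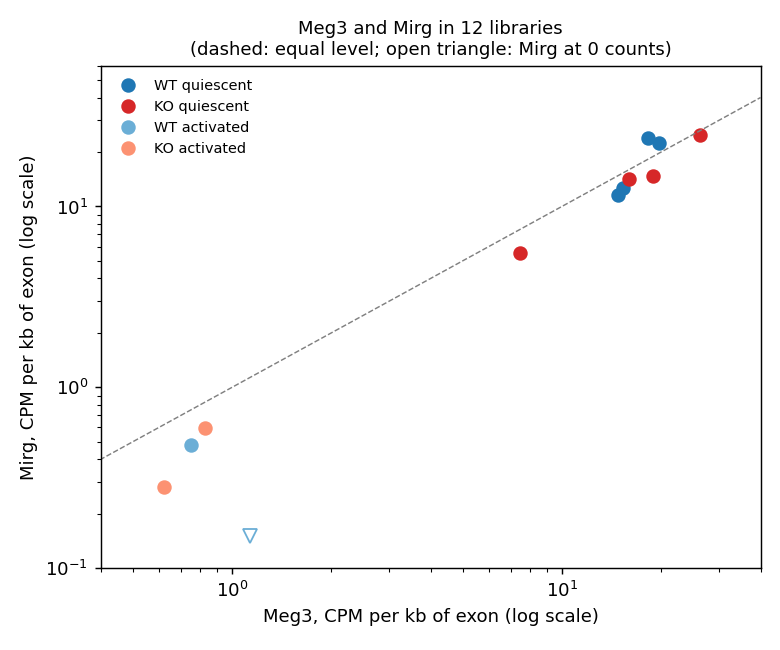
Level of Mirg against level of Meg3 in the 12 libraries, both in CPM per kb of exon on log axes, with the dashed line at equal levels and an open triangle for the WT activated library with 0 counts of Mirg. The 8 quiescent libraries lie along the line over a range of Meg3 from 7.48 to 26.3 CPM per kb, and the 4 activated ones lie at 0.624 to 1.14.

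Reads on the hairpin genes of the member loci moved with Mirg. Of 53 microRNA genes listed for the member loci, 51 were in the count table and 20 had a count in any library. Their counts summed to 719 in WT quiescent, 520 in KO quiescent, 0 in WT activated and 1 in KO activated libraries. In WT this was at least 26.2-fold lower in activated cells, with a floor of 3 counts over the group. The genes with the most counts were Mir541 (370), Mir369 (216) and Mir453 (205), all in quiescent cells, and all inside Mirg. The libraries were not made from small RNA, so these reads are of longer RNA over the hairpins and say nothing of mature microRNA. The mature sequences of those hairpins are given because they are the products that Mirg hosts, with the seed, bases 2 to 8, in capitals.
mmu-miR-541-5p: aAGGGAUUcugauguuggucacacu
mmu-miR-541-3p: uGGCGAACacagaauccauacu
mmu-miR-369-5p: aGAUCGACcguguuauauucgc
mmu-miR-369-3p: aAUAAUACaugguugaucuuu
mmu-miR-453: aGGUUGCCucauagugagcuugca
miR-453 shares its seed GGUUGCC with miR-496a-5p of the same cluster.
mmu-miR-496a-5p: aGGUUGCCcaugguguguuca
Mature sequences were found for 51 of the 53 genes, 96 in all, and 12 of them fell into 6 pairs with a common seed.

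Rian, the noncoding RNA between Meg3 and Mirg that hosts small nucleolar RNAs, was hardly counted (ENSMUSG00000097451, chr12:109603940-109661716, plus strand). It had 22, 3, 14 and 19 counts in WT quiescent and 1, 0, 8 and 2 counts in KO quiescent libraries, which overlapped. All 4 activated libraries had 0 counts. In WT this placed the activated level at least 2.12-fold lower with a floor of 3 counts over the group, and in KO the quiescent level, with 11 counts, lay under that floor. Rian was at most 0.0041 times as abundant per kilobase as Meg3. Its low level beside Meg3 and Mirg depends on which transcripts the counting assigned to it, which was not tested.

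Dlk1, a paternally expressed membrane protein of the delta family and the founding gene of the cluster, lies 77.7 kb before Meg3 (ENSMUSG00000040856, chr12:109452823-109463336, plus strand). It was close to the limit of detection, with 5, 8, 13 and 5 counts in WT quiescent and 18, 18, 24 and 17 counts in KO quiescent libraries. As CPM these were 0.260, 0.566, 0.569 and 0.240 in WT and 0.937, 1.23, 0.995 and 0.801 in KO, so that every KO library lay above every WT library. The log2 fold change of KO over WT was 1.26 (SE 0.92, 95% confidence interval -0.65 to 3.17, adjusted p = 1 by edgeR), and it was not called. Dlk1 was the 1 member of 10 whose quiescent KO libraries lay above the WT libraries without overlap, and 0.869% of all genes tested did so. Activated libraries held 1 and 0 counts in WT and 0 and 2 in KO, too few for a fold change.

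H19 is a maternally expressed lincRNA of the distal part of chromosome 7, downstream of Igf2, known for its abundance in embryonic and differentiating muscle (ENSMUSG00000000031, chr7:142575529-142578143, minus strand, 2460 bases of exon). It hosts miR-675, whose hairpin lies within an H19 exon and had 0 counts of its own in all libraries. The mature sequences of its arms are shown with the seed in capitals, since they are the small RNA products of the member that rose.
mmu-miR-675-5p: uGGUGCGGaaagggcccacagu
mmu-miR-675-3p: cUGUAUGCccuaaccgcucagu

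H19 stood at 115, 243, 73.0 and 53.3 CPM in WT quiescent libraries and at 99.0, 147, 64.9 and 48.2 CPM in KO quiescent libraries. In activated cells it stood at 464 and 902 CPM in WT and at 2108 and 3109 CPM in KO. The quiescent groups overlapped, both activated groups lay above all quiescent libraries, and the activated KO libraries lay above the activated WT libraries. H19 rose with activation by 2.49 on the log2 scale (SE 0.47, adjusted p = 0.000431 by edgeR) in WT and by 4.86 (SE 0.50, adjusted p = 5.24e-07) in KO. Without WT quiescent replicate 2, the highest of the 8, the WT value was 3.12. Over each library left out in turn the WT value ranged from 2.00 to 3.12. H19 rose in the libraries in which the mature fibre markers rose, at 353 to 1164 CPM summed in quiescent and 9017 to 20367 in activated cells, and their part in the result was not tested. Within the activated state the summed fibre level was 9017 and 19547 CPM in WT and 11401 and 20367 CPM in KO. The list of 10 genes of early differentiation summed to 189 and 354 CPM in WT and to 298 and 440 CPM in KO activated libraries. Of these 10 genes, 8 had a log2 fold change of KO over WT above 0 in activated cells and 1 was called higher, with a median of 1.53 beside 0 over all genes tested. With activation, 9 of the 10 had a log2 fold change below 0 in WT, where H19 rose, and 5 in KO. Their medians were -1.59 in WT and 0.39 in KO, beside -0.92 and -0.96 over all genes tested. The part of these genes in the H19 values was not tested either.

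The study asked what loss of Cxcr4 does to quiescent and to activated satellite cells. Its list of genes changed in activated cells, made with DESeq2 at the thresholds used here, holds H19 and Peg3 as higher in KO. By edgeR on all 12 libraries, the activated groups separated for H19 without reaching a call. The log2 fold change of H19, KO over WT, was 1.94 (SE 0.58, 95% confidence interval 0.72 to 3.15, unadjusted p = 0.00344, adjusted p = 0.280 by edgeR). The difference between this and the quiescent value of -0.43 (SE 0.40, adjusted p = 1) was 2.37 (SE 0.70, 95% confidence interval 0.90 to 3.83, adjusted p = 0.452). Of the 10 members 0 were called in activated cells, where 13 of 25771 genes were, or 0.0504%, and 2 members, H19 and Peg3, had an unadjusted p below 0.05, as had 8.37% of all genes tested. Again 0 members were called for the difference of the KO effects, as for all genes tested (0%), where the same 2 members and 1699 genes in all, or 6.59%, had an unadjusted p below 0.05. The call for H19 depended on the procedure: without a filter on low counts it was called (1.92, adjusted p = 5.89e-05, with 0.697% of all genes tested called), and so it was by DESeq2 on the activated libraries alone (1.85, adjusted p = 0.000278, with 0.28% called). The difference of the KO effects was called for H19 without the filter (2.34, adjusted p = 6.56e-05 by edgeR, with 170 of 46597 genes tested called).

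Igf2, the growth factor gene 72.6 kb from H19 and normally read from the other parental copy, was no member and was read for comparison. The study reports Igf2 as higher in activated KO cells, though its list of changed genes does not hold it. Quiescent cells held 15.3 ± 5.58 CPM of Igf2 in WT and 15.4 ± 4.71 in KO (SD, n = 4 each). In activated cells it stood at 0.489 and 3.06 CPM in WT, from 3 and 7 counts, and at 12.6 and 7.74 CPM in KO, from 49 and 34 counts. With activation Igf2 fell by 3.46 on the log2 scale in WT (SE 0.63, adjusted p = 0.000325 by edgeR), and in KO its log2 fold change was -0.60 (SE 0.46, adjusted p = 0.301). The KO over WT log2 fold change of Igf2 in activated cells was 2.87 (SE 0.68, adjusted p = 0.137 by edgeR). With each activated library left out in turn it ranged from 1.63 to 4.28, the highest without WT activated replicate 2. Its call depended on the procedure, with every library kept. Igf2 was called without the filter on low counts (2.86, adjusted p = 0.000737 by edgeR, with 325 of 46597 genes tested called). It was also called by DESeq2 on all 12 libraries (2.78, adjusted p = 0.0186, with 145 of 15866 called). The difference of the KO effects was also called for Igf2 without the filter (2.83, adjusted p = 0.0108 by edgeR, with 170 of 46597 genes tested called). The count of H19 was 4.28 to 11.5 times that of Igf2 in the 8 quiescent libraries and 168 to 948 times in the 4 activated ones, without overlap.

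The genes whose log2 CPM followed H19 most closely over the 12 libraries, among 6832 genes of sufficient level, were Hspb7, Snx17, Crat, Myom1 and Gyg, with Pearson r of 0.98, 0.98, 0.97, 0.97 and 0.97. This is a description only, because the 12 points fall into states that differ in depth and sex. Hspb7, a small heat shock protein of striated muscle, stood at 17.1 ± 8.15 and 16.4 ± 5.53 CPM in WT and KO quiescent cells and at 127 ± 56.4 and 274 ± 97.8 CPM in activated ones. Myom1, a protein of the sarcomere M band, stood at 25.2 ± 5.94 and 27.4 ± 6.03 CPM in quiescent and at 76.2 ± 40.6 and 122 ± 40.7 CPM in activated cells.

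**Figure D3:**
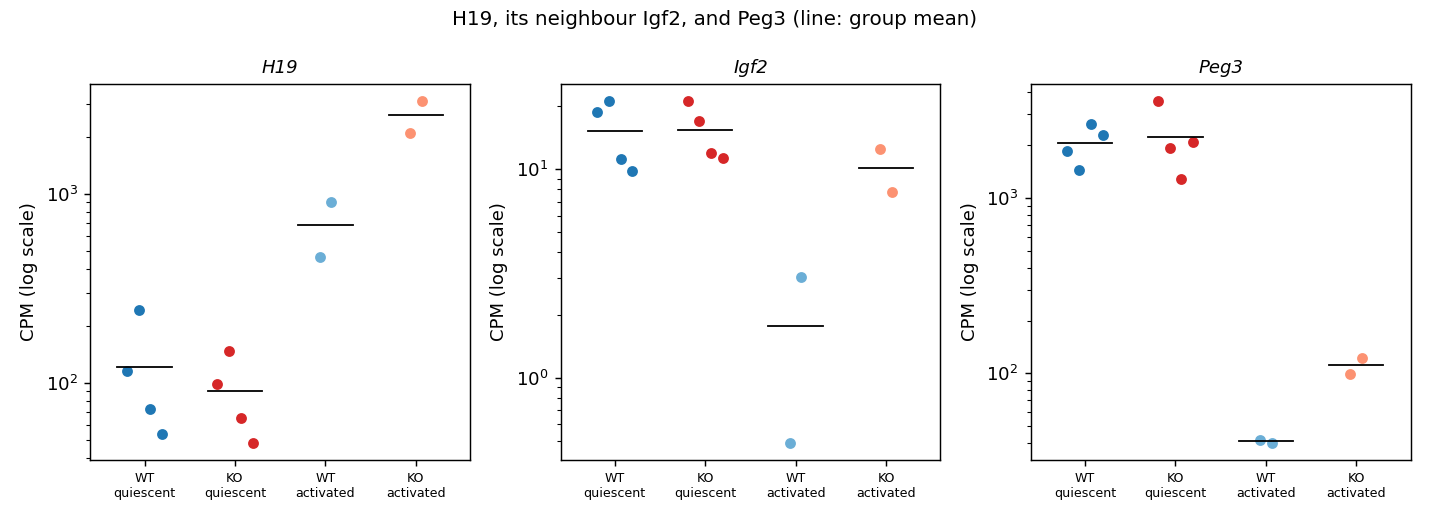
Levels of H19, Igf2 and Peg3 (CPM, log axes) in each library of the 4 groups, with a line at the group mean. In the activated state the 2 KO libraries lie above the 2 WT libraries for all 3 genes, at 2108 and 3109 against 464 and 902 CPM for H19.

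Peg3, a paternally expressed zinc finger protein and a marker of several stem cell populations, was the most abundant member of quiescent cells (ENSMUSG00000002265, chr7:6703892-6730431, minus strand). The 250 bases before its start site are given because Peg3 fell from the highest level of any member, with the only match to a searched motif other than CG in capitals (GRCm38.p6 chr7:6730420-6730669, minus strand).
Peg3: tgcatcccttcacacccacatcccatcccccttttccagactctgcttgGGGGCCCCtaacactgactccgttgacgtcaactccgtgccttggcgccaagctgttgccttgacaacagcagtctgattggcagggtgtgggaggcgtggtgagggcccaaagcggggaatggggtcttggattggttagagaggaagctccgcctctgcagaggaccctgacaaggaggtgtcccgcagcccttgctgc
The capitals are the palindrome GGGGCCCC, which 1.08% of all promoter windows held.

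Peg3 stood at 1855, 1442, 2653 and 2287 CPM in WT quiescent and at 3583, 1930, 1289 and 2095 CPM in KO quiescent libraries, and these groups overlapped. In activated cells it stood at 41.7 and 40.2 CPM in WT and at 99.7 and 122 CPM in KO. It fell by 5.65 on the log2 scale in WT (SE 0.46, adjusted p = 5.75e-08 by edgeR) and by 4.32 in KO (SE 0.43, adjusted p = 3.76e-07). Both activated KO libraries lay above both WT libraries. The KO over WT log2 fold change was 1.44 (SE 0.41, 95% confidence interval 0.59 to 2.29, unadjusted p = 0.00218, adjusted p = 0.244), and the difference from the quiescent KO effect was 1.33 (SE 0.49, adjusted p = 0.625). As for H19, the activated value was called without the filter on low counts (1.43, adjusted p = 0.0212) and by DESeq2 on the activated libraries alone (1.36, adjusted p = 0.0467). H19, Peg3 and Ndn were the 3 members of 10 whose activated KO libraries lay above the WT libraries without overlap, which 15.2% of all genes tested did.

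Plagl1, a paternally expressed zinc finger transcription factor that restrains the cell cycle, fell in both genotypes (ENSMUSG00000019817, chr10:13060504-13131694, plus strand). It stood at 134, 138, 220 and 235 CPM in WT and at 107, 115, 178 and 256 CPM in KO quiescent libraries. Activated libraries held 50.7 and 24.0 CPM in WT and 25.4 and 17.8 CPM in KO, all below the quiescent range. The log2 fold change was -2.26 (SE 0.41, adjusted p = 0.000311 by edgeR) in WT and -2.93 (SE 0.43, adjusted p = 3.07e-05) in KO. Over each library left out in turn the WT value ranged from -2.84, without WT activated replicate 1, to -1.78. In activated cells the KO over WT value was -0.82 (SE 0.44, adjusted p = 0.649).

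Mest, a paternally expressed protein of the hydrolase fold that is abundant in embryonic mesoderm, also fell (ENSMUSG00000051855, chr6:30723547-30748465, plus strand). It stood at 37.5, 52.4, 30.9 and 24.9 CPM in WT and at 18.9, 36.8, 37.6 and 17.1 CPM in KO quiescent libraries. In activated cells it stood at 7.99 and 5.68 CPM in WT and at 7.43 and 7.29 CPM in KO, again with no overlap between states. With activation its log2 fold change was -2.37 (SE 0.43, adjusted p = 0.000283 by edgeR) in WT and -1.91 (SE 0.42, adjusted p = 0.00145) in KO. Mest shares 912 exon bases with Copg2 on the opposite strand, and whether the counting used strand and how it assigned reads over both genes are not given in the sources used here, so its level is uncertain. Over all libraries Mest had 4980 counts and Copg2 had 2486.

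Ndn, a paternally expressed protein of the MAGE family from the Prader-Willi region, was low and did not pass the call in either genotype (ENSMUSG00000033585, chr7:62346569-62350262, plus strand, a single exon). It stood at 16.1, 17.7, 11.2 and 10.0 CPM in WT and at 4.01, 18.3, 15.3 and 6.36 CPM in KO quiescent libraries. Activated libraries gave 5.22 and 4.81 CPM in WT and 6.15 and 10.7 CPM in KO. WT states were separate and KO states overlapped. The log2 fold change with activation was -1.44 (SE 0.55, adjusted p = 0.0552 by edgeR) in WT, where 6 of 11 alternatives to the procedure called it, and -0.38 (SE 0.51, adjusted p = 0.563) in KO.

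Grb10, an adaptor protein that binds the insulin receptor and restrains growth, passed the adjusted p but not the fold threshold (ENSMUSG00000020176, chr11:11930508-12038683, minus strand). It stood at 263, 296, 248 and 286 CPM in WT and at 158, 219, 277 and 292 CPM in KO quiescent libraries. Activated libraries gave 135 and 148 CPM in WT and 155 and 128 CPM in KO, below each quiescent library of the same genotype. Its log2 fold changes of -0.95 (SE 0.27, adjusted p = 0.0116 by edgeR) in WT and -0.74 (SE 0.27, adjusted p = 0.0389) in KO stand beside medians of -0.92 and -0.96 over all genes tested. In activated cells the KO over WT value was 0.0050 (SE 0.30, 95% confidence interval -0.62 to 0.63).

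**Figure D4:**
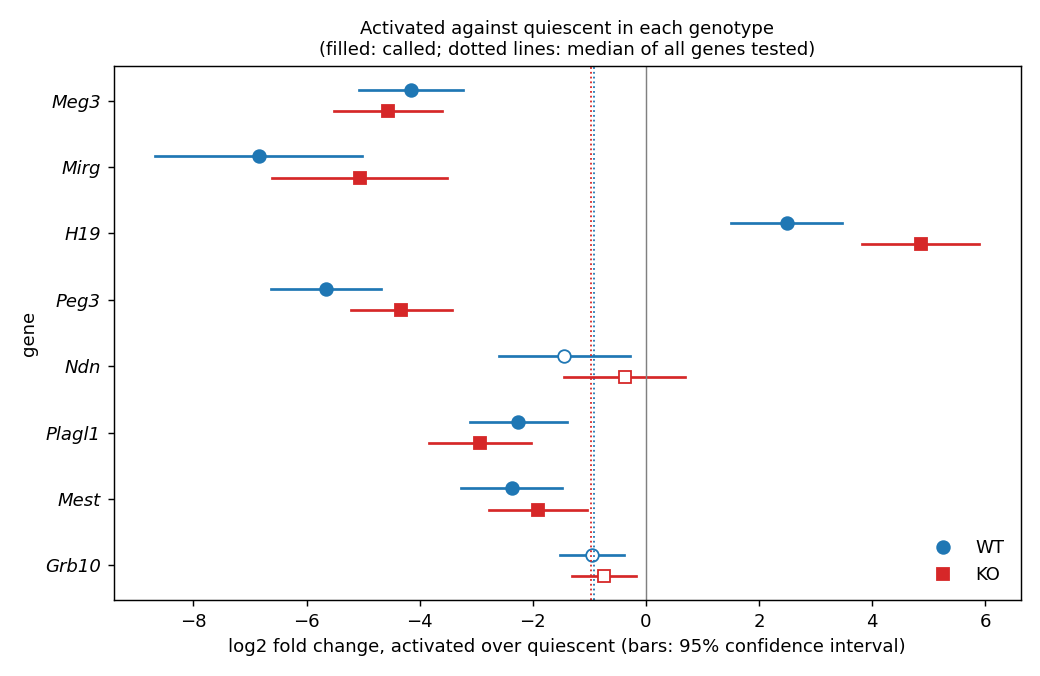
Log2 fold change of activated over quiescent cells in WT (blue circles) and KO (red squares) for the 8 members with enough counts in both states, with 95% confidence intervals, filled symbols for called values and dotted lines at the medians of all genes tested, -0.92 and -0.96. H19 alone lies to the right of zero, at 2.49 in WT and 4.86 in KO, and Mirg lies farthest to the left in each genotype.

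Deletion of Cxcr4 in quiescent cells gave 0 called members by edgeR and by DESeq2, where 4 of 25771 genes were called by edgeR, or 0.0155%. Cxcr4 was among them, with a log2 fold change of -2.24 (SE 0.31, adjusted p = 0.00477). Of the members 0 had an unadjusted p below 0.05 in this comparison. Leaving out Rian and Dlk1 with their few counts, the log2 fold changes of KO over WT lay between -0.43 for H19 and 0.11 for Peg3. Their 95% confidence intervals reached from -1.26 to 0.40 for H19, -0.46 to 0.69 for Peg3, -0.57 to 0.60 for Meg3 and -0.65 to 0.23 for Grb10. Values of Ndn, Mest, Grb10, Meg3, Mirg and Plagl1 in KO replicate 1 lay at or near the bottom of the quiescent libraries, while its Peg3 was the highest of the 8. The summed level of 10 markers of fibroadipogenic progenitors was 324 CPM in that library and 772 to 3811 CPM in the other 7, and the summed level of 10 hematopoietic markers was 257 CPM in it and 117 to 645 CPM in the others. It had the highest summed levels of the 8 for endothelial markers, at 1583 CPM against 338 to 1497, and for Schwann and neural markers, at 636 CPM against 268 to 567. The part of these other cells in the members' values was not tested.

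The wider class of imprinted genes was read from a list of 47 others, of which 46 were in the table and 43 were tested. By edgeR 0 of them were called between KO and WT in either state or for the difference, and 0, 9 and 5 had an unadjusted p below 0.05 in quiescent cells, in activated cells and for the difference, beside 1.74%, 8.37% and 6.59% of all genes tested. DESeq2 on all 12 libraries called 0, 3 and 1, beside 5 of 46556, 145 of 15866 and 48 of 14066 genes tested. With activation 19 of the 43 were called lower and 4 higher in WT by edgeR, beside 15.7% and 9.59% of all genes tested. In KO 20 were called lower and 4 higher, beside 17.4% and 11% of all genes tested. The median log2 fold changes were -1.24 in WT and -1.75 in KO, beside -0.92 and -0.96 over all genes tested. The 4 that rose were the same in both genotypes: Peg12, Kcnq1ot1, Ube3a and Blcap. Peg12, a paternally expressed gene of the Prader-Willi region, went from 5.90 ± 1.32 (SD, n = 4) to 34.6 ± 3.67 CPM (SD, n = 2) in WT, a log2 fold change of 2.54 (SE 0.49, adjusted p = 0.00051 by edgeR). In KO it reached 26.1 ± 26.6 CPM and the states overlapped. Kcnq1ot1, the noncoding RNA that silences the neighbours of Kcnq1 on the paternal copy, went from 57.9 ± 9.88 to 143 ± 1.13 CPM, a log2 fold change of 1.30 (SE 0.25, adjusted p = 0.000449). Ube3a, a ubiquitin ligase, had a log2 fold change of 1.10 and Blcap one of 1.15 in WT.

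The genes with the lowest fitted values in WT were Gpr1, Slc22a18, Kcnk9, Nap1l5 and Zim1, of which the fitted values of the first 3, at 0 counts in activated cells, give no rank. Zim1, a zinc finger gene next to Peg3, went from 212 ± 30.0 to 9.97 ± 0.730 CPM in WT, a log2 fold change of -4.42 (SE 0.42, adjusted p = 2.98e-07 by edgeR). Nap1l5 went from 35.0 ± 5.52 to 0.874 ± 1.24 CPM, from 4 counts in activated cells, with a log2 fold change of -6.03 (SE 0.73). For Gpr1, Slc22a18 and the potassium channel gene Kcnk9 the counts place the activated WT level at least 6.16-fold, 5.87-fold and 3.87-fold lower, with a floor of 3 counts over the group. In KO the 5 lowest fitted values were those of Nap1l5, Rasgrf1, Kcnk9, Peg10 and Slc22a18, again with no rank among those at 0 counts or 1 count. Nap1l5 had 2543 counts in quiescent and 0 in activated KO cells, at least 88.7-fold lower. Rasgrf1 and Kcnk9 were likewise at 0 and at least 6.39-fold and 4.15-fold lower. Peg10 went from 129 ± 51.1 to 4.31 ± 0.662 CPM, a log2 fold change of -4.90 (SE 0.42, adjusted p = 7.62e-08), and Slc22a18 went from 205 counts to 1.

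The promoters of the members had little in common by the letters searched. Windows of 250 bases before to 50 after the start site were present for 9 of the 10 members, 13 windows in all. The dinucleotide CG was in 12 of the 13 windows, of 8 members, and in 94.6% of all windows. The E-box letters CANNTG, the core that MyoD and other bHLH factors bind, were in 8 of the 13 windows and in 72.3% of all windows. Those 8 windows belong to 6 members (Grb10, Meg3, Mest, Mirg, Plagl1 and Rian). The special case CAGCTG was in 1 of the 13 windows, of Mest, and in 16.3% of all. The letters GCCAT were in 5 of the 13 windows, of 5 members (Grb10, Meg3, Ndn, Plagl1 and Rian), and in 40.5% of all. The 6 motifs were searched on both strands, and CAGCTG is also counted as CANNTG.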

How the data were processed

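The deposited table holds raw counts per gene. Per the labels and methods, the authors trimmed reads with Trim Galore 0.6.0, aligned them to GRCm38.p6 (mm10) with STAR 2.7.2a and counted them on GENCODE M25 genes with Rsubread 2.2.6; the treatment of multi-mapping reads and of strand is not given in the sources used here. The authors' FPKM values, also deposited, are means per group and served only to check levels per length, and their columns of fold changes and p-values were not used. All 12 libraries were fitted together with 1 mean per group (edgeR 4.0.16, R 4.3.3, TMM scaling, filterByExpr, quasi-likelihood test, Benjamini-Hochberg). CPM used the TMM-scaled library sizes. DESeq2 1.42.0, other filters and scalings, a replicate block and each library left out were alternatives. Intervals and floors cover counting error or spread between libraries only. Lengths and positions came from GENCODE M21 on GRCm38, and sequences from RefSeq (GRCm38.p6). The members, the lists and the rule for names were chosen with earlier results of these data known. By that rule, all members, Cxcr4, Pax7, Myod1 and Igf2 were named, with at most 5 highest and 5 lowest called genes of the other imprinted list, 3 microRNA genes and 5 genes nearest to H19.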

Additional observations from a re-analysis of the deposited data

How the results depend on the processing

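Activation gave 6 or 7 called members in each genotype under all alternatives and 6 with each library left out. Grb10 was added where the fold threshold was dropped, and Ndn in WT by 6 alternatives. Of the 10 members 0 were called between KO and WT in quiescent cells throughout. In activated cells 2 were called without a filter on low counts and 2 by DESeq2 on the compared groups, H19 and Peg3 each time. With a replicate block 1, H19, was called (1.99, adjusted p = 0.00647 by edgeR, with 10 of 25771 genes tested called). For the difference of the KO effects 1 member, H19, was called without a filter (2.34, adjusted p = 6.56e-05 by edgeR, with 170 of 46597 genes tested called). With the replicate block 1, again H19, was called (2.30, adjusted p = 0.0122, with 3 of 25771 called). Leaving out each library in turn called 0 in both. Over all genes in activated cells, 13 were called KO against WT, 325 without a filter, 145 by DESeq2 on all libraries, 29 by DESeq2 on the compared groups, 2 with a mean count of at least 10, 3 by edgeR on the compared groups, 20 by the robust fit and 8 with DESeq2 size factors. The count was 0 without WT activated replicate 1, 209 without WT activated replicate 2, 59 without KO activated replicate 1 and 2 without KO activated replicate 2. For the other imprinted genes 0 to 3 were called there. The cause was not tested.

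The values did not settle whether the replicate numbers pair the libraries. Deviations of same-numbered WT and KO quiescent libraries from their group means correlated by 0.05, 0.12, -0.05 and 0.30. Those of differently numbered ones correlated by -0.21 to 0.08. Total counts of numbers 1 to 4 were 17532019, 12775593, 23058947 and 22785815 in WT quiescent libraries. In KO quiescent libraries they were 17238391, 13075208, 22897189 and 23717013. In activated cells the 2 libraries of a group deviate as mirror images, so the value of -0.02 is a single one and cannot decide. Of the results near zero, several changed sign. With the replicate block the quiescent KO value of Meg3 was -0.11. The activated KO value of Mest was -0.13 without both libraries numbered 2. That of Grb10 was -0.0538 with DESeq2 size factors, -0.0016 with the mean filter, -0.0527 with DESeq2 on all libraries, -0.0667 with DESeq2 on the compared groups, -0.0482 with edgeR on the compared groups and -0.01 without the ribosomal RNA gene. With each library left out in turn, the quiescent KO values ranged from -0.77 to 0.17 for H19, -0.27 to 0.26 for Meg3, -0.62 to 0.0149 for Mirg, -0.22 to 0.30 for Peg3, -0.44 to 0.0115 for Plagl1 and -0.18 to 0.22 for Igf2. The activated ones ranged from -0.22 to 8.62 for Mirg, -0.20 to 0.28 for Mest and -0.16 to 0.0822 for Grb10, and from 1.43 to 2.41 for H19 and 1.23 to 1.56 for Peg3. The authors' FPKM gave levels 0.951 to 1.07 times those computed per kilobase, for levels above 0.1, and 1 of 40 levels, Mest in KO activated cells, moved by more than its SD, to 1.833 from 1.87. Below 0.1, Rian had 0.022 by FPKM against 0.0396 CPM per kb in WT quiescent and 0.004 against 0.00655 in KO quiescent cells. Activated groups of 2 libraries and counts of 0 to 27 for Mirg, Rian and Dlk1 limit what can be read there.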
